A study of Equus caballus with 14 samples.

Results

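The genes described here are the Toll-like receptors TLR2, TLR3, TLR4 and TLR9, measured on 1-colour Agilent arrays in mediastinal lymph nodes of horses with recurrent airway obstruction (RAO, also called heaves) and of control horses. RAO is an asthma-like disease of horses in which dust and molds from hay provoke airway obstruction and neutrophils in the airways, and the mediastinal nodes drain the lung. The genes were chosen by name, and their probes were those designed to the horse RefSeq transcript of each gene. All 4 genes had a probe, TLR4 had 2 and the others 1 each, so 5 of the 43603 probes on the array were examined, and 4 of the 599 genes that could be named. Names were found for 1251 probes, and any further probe of these receptors among the unnamed ones was not analysed here. Among the other Toll-like receptors, TLR7 and TLR8 had named probes, and they are given beside the 4 receptors.

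Toll-like receptors are membrane proteins that recognize molecules of microbes and, in some cases, of damaged host cells. TLR2 sits at the cell surface and recognizes bacterial lipoproteins and fungal wall components, and TLR4, also at the surface, recognizes bacterial endotoxin together with its partner LY96 (the MD-2 protein) and the endotoxin carrier CD14. TLR3 and TLR9 sit in endosomes, where TLR3 binds double-stranded RNA and TLR9 binds DNA with unmethylated CpG. All of these receptors signal through adaptor proteins to NF-kB and interferon regulatory factors, which induce cytokines, chemokines and enzymes such as IL1B, CXCL8, IL12B and PTGS2. In lymphoid tissue, TLR2 and TLR4 are best known from macrophages, monocytes and other myeloid cells, TLR3 from dendritic cells and stroma, and TLR9 from B cells and plasmacytoid dendritic cells.

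RNA of the node, with cortex and medulla, came from 7 RAO-affected and 7 control horses of mixed breed, 1 horse per array, with no technical replicates. According to the study's methods the horses of both groups were adults kept at pasture and then stabled on dusty hay, so the control horses had the same exposure. RAO-affected horses were on average the older group, ages of single horses were not given, and age and disease cannot be told apart. The arrays were spread over 4 slides, and every slide carried horses of both groups. Slide 1, which carried RAO-affected horse 4 and control horses 3 and 5, stood apart from the rest, with correlations between its arrays and the others of 0.923 to 0.959, against 0.959 to 0.990 among slides 2, 3 and 4, and it was scanned 16 days apart. Between 32794 and 40017 probes per array were well above background. All 5 Toll-like receptor probes were well above background on all 14 arrays. Precision is limited by the number of arrays throughout.

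TLR4 was higher in RAO-affected than in control nodes in both of its probes, by 1.49-fold and 1.37-fold. TLR2 and TLR3 were higher on average by 1.34-fold and 1.22-fold, and TLR9 was lower on average by 1.34-fold, and each of these 3 differences lay within the spread between horses. No Toll-like receptor probe differed 2-fold. None of the 5 probes met the 2-fold rule used here (2-fold or more, with p under 0.05 before adjustment), against 1.47% of the 38726 probes tested. Both TLR4 probes had an unadjusted limma p under 0.05, as had 5.62% of all probes tested. After Benjamini-Hochberg adjustment in limma no probe of the array passed (0%), and the smallest adjusted p was 0.874. At the unadjusted threshold 2177 probes had passed. The median difference of the 4 genes was 0.35 on the log2 scale, against -0.03 over all probes tested, and the median absolute difference was 0.42, against 0.18. The value of 0.42 comes from TLR2 and TLR9, whose differences lay within the spread between horses. Signals below are quantile-normalized log2 intensities, and signals of different probes are not compared with each other, because probes differ in brightness for the same amount of RNA.

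**Figure D1:**
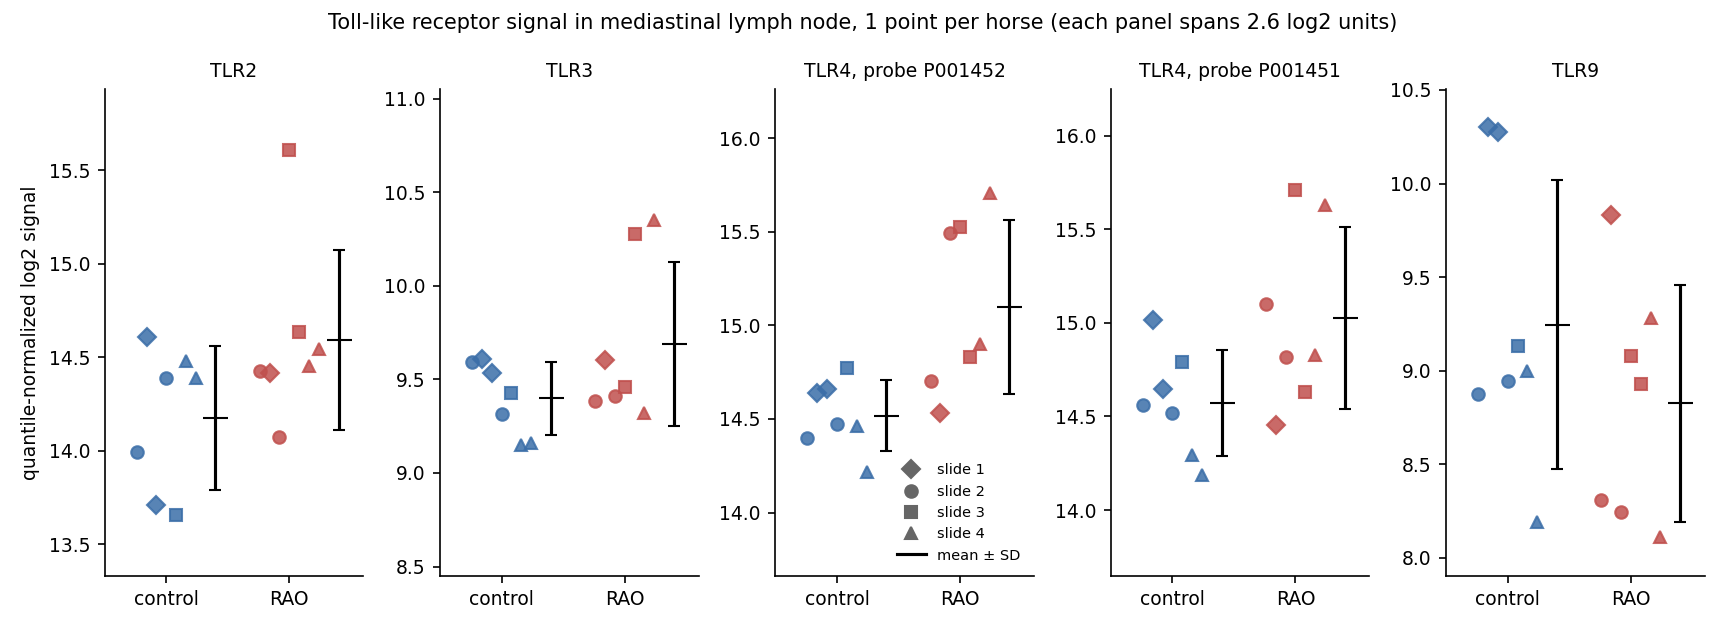
Quantile-normalized log2 signal (y axis) of the 5 Toll-like receptor probes in control (blue) and RAO-affected (red) horses, 1 point per horse with its slide as the symbol, and the mean ± SD of 7 horses in black. Every panel spans the same log2 range. For TLR4 probe A_69_P001452, 5 RAO-affected horses exceed all 7 control horses, and for TLR9 the 3 arrays of slide 1 (9.83 to 10.30) lie above all others.

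TLR4 is the endotoxin receptor. Its probe A_69_P001452 gave log2 signals from 14.22 to 14.77 in the control horses, with a median of 14.47, and from 14.53 to 15.71 in the RAO-affected horses, with a median of 14.90. The control horses lay close together, and the RAO-affected horses spread from the middle of the control range upward. RAO-affected horses 14, 8 and 6, at 15.71, 15.53 and 15.49, were the highest, 5 of 7 lay above every control horse, and all 7 lay above the control mean. The group means were 15.10 ± 0.47 (SD, n = 7) and 14.52 ± 0.19 (SD, n = 7), a difference of 0.58 (SE 0.19, 95% confidence interval 0.17 to 0.99). The two-sided exact permutation test of the group labels gave p = 0.00816 (n = 7 and 7). Its unadjusted limma p was 0.00845, and the adjusted p was 0.874. In a lymph node sampled as a whole, more RNA per cell and more cells that carry a transcript cannot be told apart.

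The other TLR4 probe, A_69_P001451, ranged from 14.19 to 15.02 in control horses (median 14.56) and from 14.45 to 15.71 in RAO-affected horses (median 14.83). Here the groups overlapped more, with 3 RAO-affected horses (2, 8 and 14) above every control horse and RAO-affected horse 4 below the control mean. This probe was saturated in RAO-affected horse 8, so the value of 15.71 is a lower limit there. The difference was 0.45 (SE 0.21, 95% confidence interval 0.01 to 0.90), with group means of 15.03 ± 0.48 (SD, n = 7) and 14.57 ± 0.28 (SD, n = 7). Its limma p was 0.0477 before adjustment and 0.883 after it, and the exact permutation p was 0.0548. The 2 probes followed each other over the 14 horses (r = 0.830, Spearman's rho = 0.815), with a largest gap of 0.67 on 1 array. Averaged over both probes, TLR4 gave group means of 15.06 ± 0.44 (SD, n = 7) with RAO and 14.55 ± 0.22 (SD, n = 7) without it, 1.43-fold higher (difference 0.52, exact permutation p = 0.0152). By mean signal the probes could hardly be ranked (14.81 and 14.80), so the choice of A_69_P001452 to stand for the gene was a close one.

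Within slides, the TLR4 difference of probe A_69_P001452 was -0.12 on slide 1, 0.66 on slide 2, 0.40 on slide 3 and 0.96 on slide 4. It was thus positive on 3 of the 4 slides, and on slide 1 it rested on 1 RAO-affected horse, number 4, the lowest of its group. With slide as a fixed block the difference was 0.54 (95% confidence interval 0.09 to 1.00, limma adjusted p = 0.384). For probe A_69_P001451 the values by slide were -0.38, 0.42, 0.38 and 0.99, and the blocked difference was 0.42 (95% confidence interval -0.08 to 0.93). Leaving out 1 horse at a time moved the difference of A_69_P001452 between 0.48 and 0.67, with a limma p under 0.05 in 14 of 14 fits, and that of A_69_P001451 between 0.34 and 0.55, with such a p in 6 of 14.

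**Figure D2:**
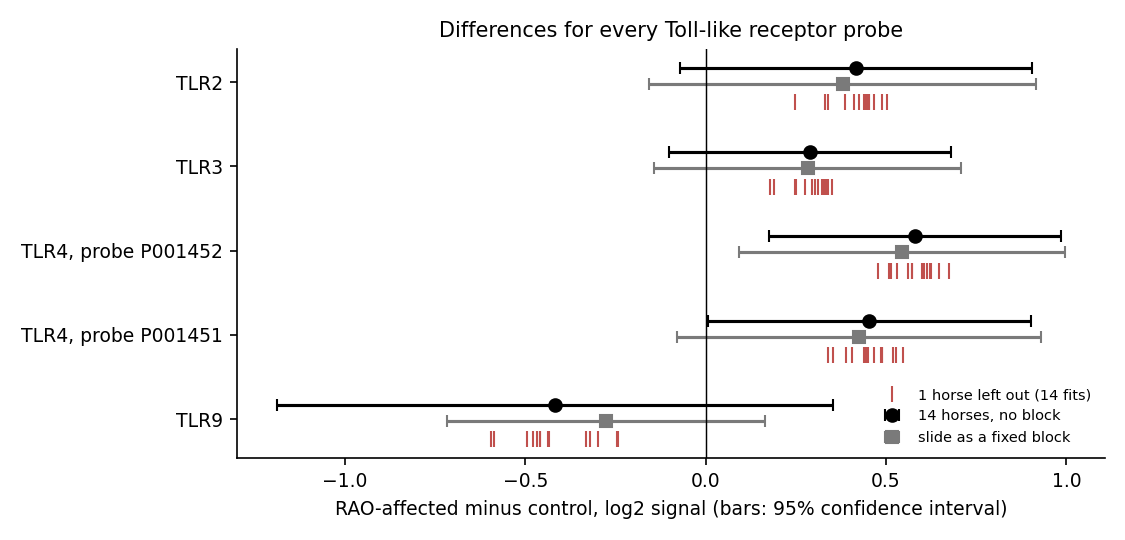
Difference between RAO-affected and control horses (x axis, log2 signal) for each Toll-like receptor probe, with 95% confidence intervals from limma over 14 horses without a block (black) and with slide as a fixed block (grey), and the 14 values with 1 horse left out (red ticks). Both black TLR4 intervals lie above 0, the grey one of probe A_69_P001451 does not, and the intervals of TLR2, TLR3 and TLR9 all include 0.

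TLR2, the lipoprotein receptor, measured 13.66 to 14.61 in control horses (median 14.39) and 14.07 to 15.61 in RAO-affected horses (median 14.45). The medians were close, and RAO-affected horse 8, at 15.61, stood apart, while the other 6 lay between 14.07 and 14.63. Horses 8 and 10 lay above every control horse, and 5 of 7 lay within the control range. The means were 14.59 ± 0.48 (SD, n = 7) and 14.18 ± 0.39 (SD, n = 7). The difference of 0.42 (SE 0.23, 95% confidence interval -0.07 to 0.90) had an exact permutation p of 0.0868 and an adjusted limma p of 0.896. By slide it was 0.25, 0.06, 1.46 and 0.06, so that slide 3 gave most of it. That slide held RAO-affected horse 8 and only 1 control horse, number 9, the lowest of all horses at 13.66. Without RAO-affected horse 8 the difference was 0.25, and without control horse 9 it was 0.33. The fit with slide as a fixed block gave 0.38 (95% confidence interval -0.16 to 0.92).

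TLR3, the receptor for double-stranded RNA, ranged from 9.15 to 9.61 in control horses, with a median of 9.43, and from 9.32 to 10.35 in RAO-affected horses, with a median of 9.46. RAO-affected horses 14 and 10, at 10.35 and 10.28, lay above every control horse, and the other 5 lay within the control range. The means were 9.69 ± 0.44 (SD, n = 7) and 9.40 ± 0.19 (SD, n = 7), a difference of 0.29 (SE 0.18, 95% confidence interval -0.10 to 0.68). The exact permutation p was 0.161 and the adjusted limma p 0.906. The difference was 0.03 and -0.05 on slides 1 and 2 and 0.44 and 0.68 on slides 3 and 4, which held horses 10 and 14. It was 0.18 without horse 14, 0.19 without horse 10, and 0.28 with slide as a fixed block (95% confidence interval -0.14 to 0.71).

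TLR9, the receptor for CpG DNA, was the only 1 of the 4 genes with a lower mean in RAO-affected horses. Control horses ranged from 8.19 to 10.30 (median 9.00) and RAO-affected horses from 8.11 to 9.83 (median 8.93). The ranges overlapped almost wholly, and the highest signals in each group came from slide 1. The arrays of that slide, from RAO-affected horse 4 and control horses 3 and 5, lay at 9.83 to 10.30, and the other 11 arrays at 8.11 to 9.28. Before normalization the intensities were 1301 to 2020 on slide 1 and 253 to 692 on the others. Such a separation was common on the array: of the probes tested, 17.4% had all slide 1 arrays above all others, and 16.2% had them all below. TLR2, TLR3 and both TLR4 probes were in neither set.

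Mean TLR9 signals were 9.24 ± 0.77 (SD, n = 7) for control horses against 8.83 ± 0.63 (SD, n = 7) with RAO, which is a difference of -0.42 (SE 0.36, 95% confidence interval -1.19 to 0.35, exact permutation p = 0.284, adjusted limma p = 0.934). Slide 1 held 2 control horses and 1 RAO-affected horse. Without it the means were 8.66 ± 0.50 (SD, n = 6) and 8.83 ± 0.37 (SD, n = 5), and the difference was -0.17. By slide it was -0.45, -0.63, -0.13 and 0.10, and with slide as a fixed block -0.28 (SE 0.20, 95% confidence interval -0.72 to 0.17).

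**Figure D3:**
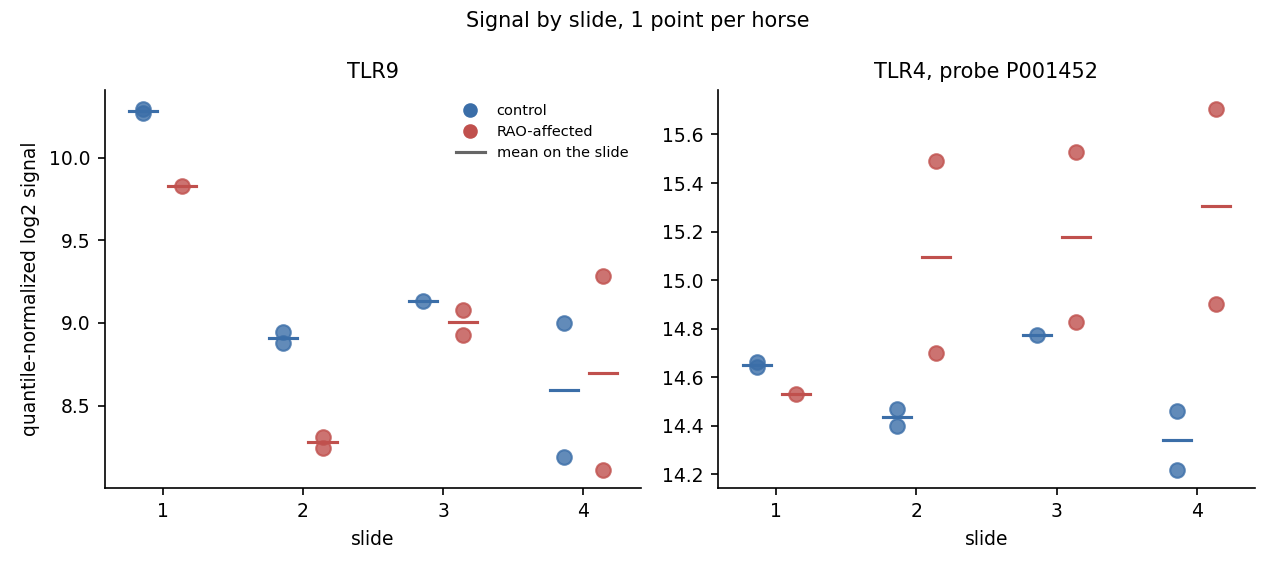
Log2 signal (y axis) of TLR9 and of TLR4 probe A_69_P001452 by slide (x axis), 1 point per horse, control in blue and RAO-affected in red, with bars at the mean of each group on a slide. TLR9 is highest on slide 1 in both groups, and TLR4 is higher in RAO-affected horses on slides 2, 3 and 4 but not on slide 1.

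Of the other Toll-like receptors, TLR8 and TLR7, endosomal receptors for single-stranded RNA, had probes. TLR8 ranged from 13.55 to 14.40 in control horses (median 14.01) and from 13.82 to 14.89 in RAO-affected horses (median 14.37). The groups overlapped, with 3 RAO-affected horses above every control horse. The difference of 0.36 (1.28-fold, SE 0.19) had an exact permutation p of 0.0845, was positive on all 4 slides (0.38, 0.18, 0.37 and 0.17), and was 0.25 with slide as a fixed block. Its size was close to that of TLR2, with a smaller spread across slides. TLR7 gave -0.09 and 0.08 in its 2 probes (exact permutation p = 0.669 and 0.707), which differed in sign and by less than the spread between horses.

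The receptors' partners and downstream genes were taken from a list of 72 other genes of the pathway. The gene names could locate 25 of them on the array, and 24 were tested. IFNB1, the interferon beta gene, was well above background on 3 arrays and was not tested. Of the 24 genes, 2 met the 2-fold rule upward (CD14 and CXCL8) and 1 downward (IL12B), 16 had a higher and 8 a lower mean in RAO-affected horses, and the median difference was 0.26. Over all 38726 probes tested, 426 met the rule upward and 144 downward, together 1.47%, and the median difference was -0.03. The share of all probes with a higher mean is not given, so the counts of 16 and 8 have no comparison. A gene here stands for its brightest probe, while the array values count single probes. The 5 adaptors, the 12 kinases and ligases and the 7 inhibitors on the list were not located, so no value is given between receptor and target.

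CD14, which hands endotoxin to TLR4, ranged from 13.45 to 15.80 in control horses (median 14.16) and from 14.39 to 15.91 in RAO-affected horses (median 15.43). All 7 RAO-affected horses lay above the control mean, and 2 lay above every control horse, since control horse 5 reached 15.80 while the remaining 6 control horses stayed at 13.45 to 14.36. Saturation affected 1 RAO-affected array. The means were 15.35 ± 0.52 (SD, n = 7) and 14.24 ± 0.76 (SD, n = 7), a 2.16-fold increase (difference 1.11, SE 0.33, 95% confidence interval 0.40 to 1.82). The exact permutation p was 0.0117, the limma p 0.00494 and the adjusted p 0.874. On slides 1 to 4 the difference was 0.34, 1.18, 1.37 and 1.504, and the blocked difference was 1.15 (95% confidence interval 0.57 to 1.73). Without control horse 5 the difference was 1.37, and without control horse 7 it was 0.98, just under 2-fold. LY96, the partner of TLR4 in recognizing endotoxin, gave 15.64 to 15.97 in control and 15.65 to 16.00 in RAO-affected horses. Its probe was saturated on 4 control and 5 RAO-affected arrays, so the difference of 0.03 (exact permutation p = 0.663) rests on saturated signals in both groups. A second LY96 probe gave 0.07.

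HMGB1 and biglycan (BGN) are host proteins that can engage TLR2 and TLR4. The probe chosen for HMGB1 was saturated on all 14 arrays and has no fold. Further HMGB1 probes gave 0.03 and -0.07 (exact permutation p = 0.837 and 0.612). BGN measured 14.61 ± 0.32 (SD, n = 7) against 14.28 ± 0.53 (SD, n = 7), a difference of 0.33 (exact permutation p = 0.181) that was -0.29 on slide 1 and 0.69, 0.67 and 0.43 on slides 2, 3 and 4. Of the transcription factors that the receptors activate, the NF-kB subunit RELA differed by 0.13 (exact permutation p = 0.670) and FOS, a part of AP-1, by 0.40 (exact permutation p = 0.227). The FOS probe was saturated on 1 control and 4 RAO-affected arrays.

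**Figure D4:**
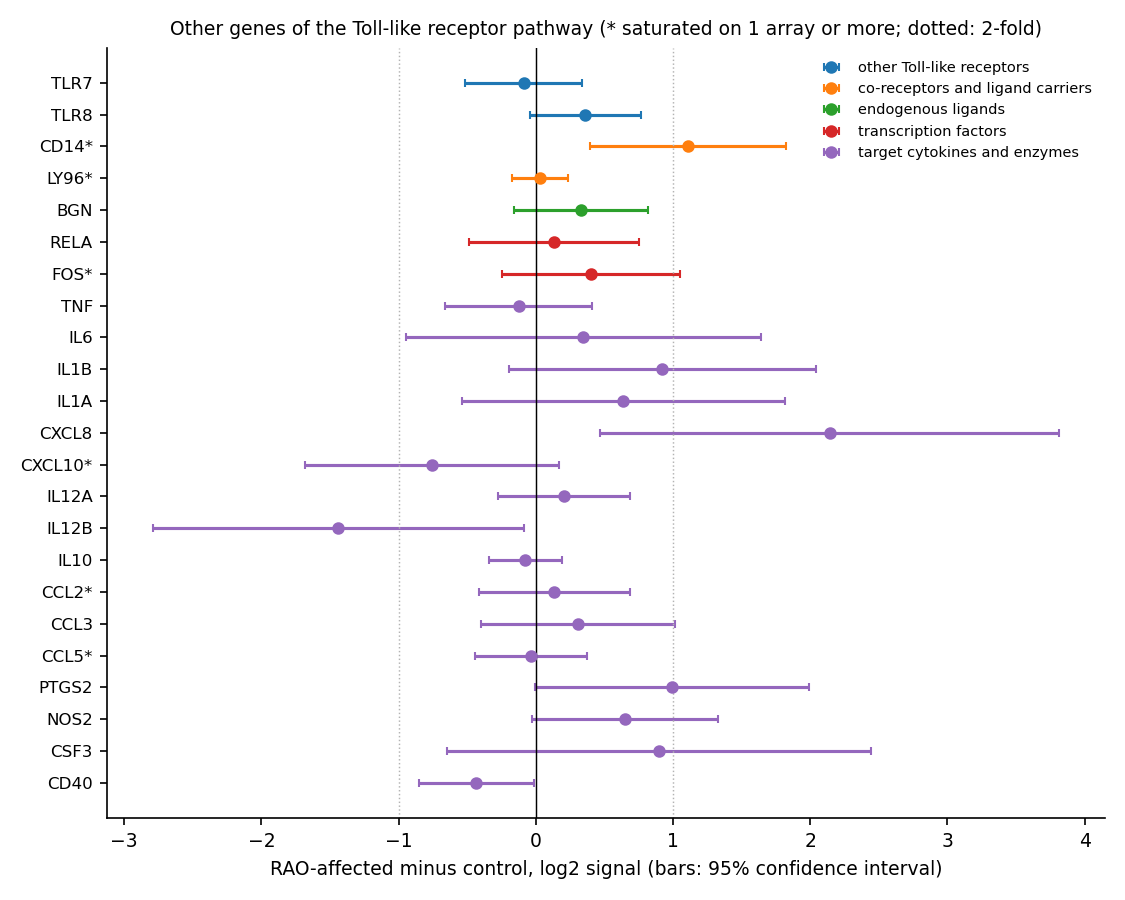
Difference between RAO-affected and control horses (x axis, log2 signal) with its 95% confidence interval from limma for the tested genes of the Toll-like receptor pathway other than the 4 receptors, colored by role. HMGB1, whose chosen probe was saturated on all 14 arrays, is left out. Intervals of CD14 and CXCL8 lie above 0, those of IL12B and CD40 below 0, and the dotted lines mark 2-fold.

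Among the 16 target genes tested, CXCL8, the neutrophil chemokine interleukin 8, ranged from 7.49 to 11.03 in control horses (median 9.39) and from 9.17 to 14.84 in RAO-affected horses (median 11.16). It was 4.41-fold up-regulated (difference 2.14, exact permutation p = 0.0192), and 5 RAO-affected horses exceeded the highest control horse. Its 6 probes gave differences from 1.99 to 2.31, each past the 2-fold rule, and with slide as a fixed block the difference was 1.73. IL12B, the subunit that IL-12 and IL-23 share, was lower in RAO-affected horses, by 1.44 as normalized here (exact permutation p = 0.0513, limma p = 0.0389), with signals from 6.23 to 8.28 in control horses (median 6.72) and from 3.05 to 7.95 in RAO-affected horses (median 5.57). It was well above background in all 7 control horses but in 4 of 7 RAO-affected horses, and 4 RAO-affected horses lay below every control horse. With slide as a fixed block its difference was -1.11 (95% confidence interval -2.22 to 0.004), and with normexp background correction -0.56, so that the 2-fold rule was not met in either case. The rule was met in 7 of 14 fits with 1 horse left out, with differences from -1.82 to -1.003, and not by the methods' t-test, and with signals near background in 3 RAO-affected horses the size of the difference is uncertain. By slide it was -0.12, 0.14, -3.17 and -1.65.

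CD40, the co-stimulatory receptor of antigen-presenting cells, ranged from 13.25 to 14.39 in control horses (median 14.04) and from 13.04 to 13.97 in RAO-affected horses (median 13.72). No RAO-affected horse reached the control mean, although 6 of them lay within the control range. Its difference of -0.43 (1.35-fold lower, limma p = 0.0443, exact permutation p = 0.0501) was negative on all 4 slides (-0.35, -0.45, -0.60 and -0.51), and the 5 CD40 probes gave -0.43 to -0.39. The blocked difference was -0.48 (95% confidence interval -0.81 to -0.14).

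The other targets that differed by at least 1.5-fold on average did not pass the test in the probe chosen for each. PTGS2, the inducible cyclooxygenase, differed by 0.99 (exact permutation p = 0.0758), and its other 2 probes gave 1.12, which met the 2-fold rule, and 0.64. With slide as a fixed block the 3 probes gave 0.69, 0.86 and 0.68, all under 2-fold. IL1B, an inflammatory cytokine, differed by 0.92 (exact permutation p = 0.0594), with RAO-affected horse 8 at 14.37 and the other 6 at 10.16 to 11.51. Further IL1B probes gave 0.97, 0.90 and 1.06 (exact permutation p = 0.0495, 0.111 and 0.0396). Their limma p-values were 0.0850, 0.123 and 0.0648, so none met the 2-fold rule. CSF3, the granulocyte growth factor, differed by 0.90 (exact permutation p = 0.351), NOS2, the inducible nitric oxide synthase, by 0.65 (exact permutation p = 0.0740) and CXCL10, an interferon-induced chemokine saturated on 1 RAO-affected array, by -0.76 (exact permutation p = 0.121). For NOS2, 5 RAO-affected horses exceeded all control horses, but of the 7 NOS2 probes that passed the filter (of 12) 1 gave -0.07 and 1 gave 0.04. IL1A, at 0.64, was well above background on 2 arrays of each group. The remaining targets gave differences of 0.35 for IL6, 0.31 for CCL3, 0.21 for IL12A, 0.14 for CCL2, -0.04 for CCL5, -0.08 for IL10 and -0.12 for TNF, all within the spread between horses, and those of TNF and CCL5 turned to 0.04 with slide as a fixed block. The CCL2 probe was saturated on 3 RAO-affected arrays and the CCL5 probe on 2 arrays of each group, so these differences include values at the top of the scale.

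Markers of cell types that carry these receptors were located in part. For macrophages and monocytes, 3 of 7 markers had probes. CD163, the hemoglobin scavenger receptor, ranged from 8.82 to 11.08 in control and from 11.11 to 14.25 in RAO-affected horses, so that the groups did not overlap (difference 2.61, exact permutation p = 0.000583, the smallest that 7 against 7 allow, limma adjusted p = 0.874). CD14 is given above, and CD68, saturated on 1 array of each group, differed by 0.04. The mean log2 signal of the 3 markers was 12.16 to 14.29 in control and 12.93 to 14.76 in RAO-affected horses. For endothelium, 4 of 6 markers were located, with means of 10.59 to 12.05 and 11.27 to 14.31. PECAM1 (0.45) and SELE (1.46, limma p = 0.142, exact permutation p = 0.0408) did not meet the 2-fold rule. The SELE probe was saturated in 1 RAO-affected horse, and further SELE probes gave -0.07 to 0.48. SELP (1.64) and CAV1 (1.21) met the rule. On slide 1 these differences were -0.56 and -0.83. With slide as a fixed block CAV1 gave 1.16 (95% confidence interval -0.01 to 2.33), and 2 of its 5 probes met the rule without the block. The 2 located of 8 T cell markers, CD2 and CD28, differed by -0.43 and -0.41, with means of 10.502 to 11.69 in control and 10.17 to 11.95 in RAO-affected horses. For mast cells 2 of 5 markers were located, with means of 8.68 to 12.03 and 10.12 to 13.21. FCER1A differed by 1.04 (limma p = 0.0532, exact permutation p = 0.0752), with 1.01 in its other probe. TPSB2 differed by 0.77 (exact permutation p = 0.358), and neither gene met the 2-fold rule. The lung epithelial marker SFTPA1, the 1 of 6 located, ranged from 8.21 to 12.10 and from 8.61 to 14.20. Its difference was 0.54 (exact permutation p = 0.557). Every located marker was well above background on all 14 arrays. None of the markers for B cells, neutrophils, plasmacytoid dendritic cells or erythroid cells was located, so no marker of the main known carriers of TLR9 is given. The part of cell composition in the TLR4 and CD14 differences was not tested.

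Over the 14 horses no pair of the 4 receptors had a correlation that passed the test. Correlations of the 6 pairs ran from -0.298 (TLR4 with TLR9) to 0.465 (TLR3 with TLR4), with permutation p-values of at least 0.257 after adjustment over the 14 relations computed. Some pairs changed with the horses used: TLR3 and TLR9 gave r = -0.063 over all horses and 0.601 without the 2 farthest from the TLR3 median, and TLR4 and TLR9 gave 0.733 within control and -0.588 within RAO-affected horses, a difference that was not tested. Each receptor was also set against CD14 and CD163. TLR4 and CD14 gave r = 0.573 (permutation p = 0.0344, adjusted p = 0.163) and Spearman's rho = 0.758 (permutation p = 0.00229, adjusted p = 0.0321). Without the 2 horses farthest from the TLR4 median r was 0.313, and without slide 1 it was 0.709 over 11 horses. Leaving out the farthest horses narrows the TLR4 range, which by itself lowers r, so whether the relation rests on them is not settled. With each group centered on its own mean r was 0.228, and with each slide centered on its mean it was 0.657. RAO-affected horse 6 had the lowest CD14 signal of its group (14.39), and its TLR4 signal was 15.49 in this probe but 14.82, within the control range, in probe A_69_P001451.

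TLR4 and CD163 gave r = 0.569 (permutation p = 0.0350, adjusted p = 0.163) and rho = 0.626 (permutation p = 0.0188, adjusted p = 0.132), with r = 0.344 without the 2 farthest horses and 0.039 with each group centered. TLR2 and CD163 gave r = 0.617 (permutation p = 0.0158, adjusted p = 0.163) and rho = 0.525 (permutation p = 0.0564, adjusted p = 0.263). Within the groups r was -0.075 in control and 0.825 in RAO-affected horses, where horse 8 was highest in both genes. Over both groups together, r fell from 0.617 to 0.157 without the 2 horses farthest from the TLR2 median, and was 0.781 without slide 1. The narrower TLR2 range by itself lowers r here too. The remaining relations, of TLR3 and TLR9 with CD14 and CD163 and of TLR2 with CD14, ran from -0.006 to 0.458.

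**Figure D5:**
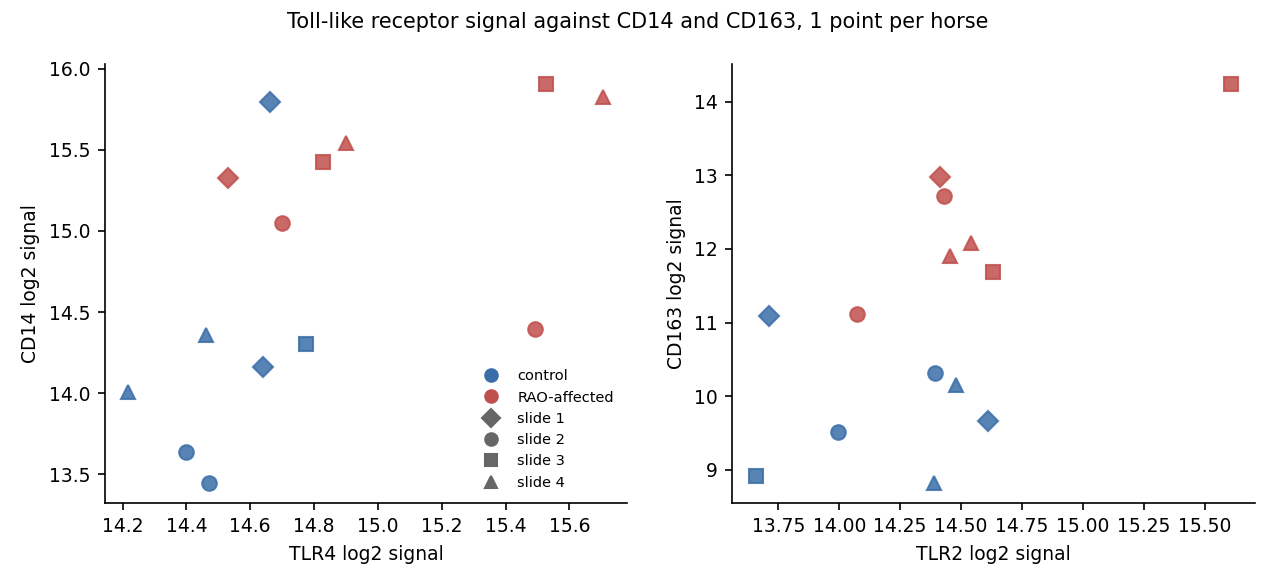
Log2 signal of CD14 against TLR4 probe A_69_P001452 (left) and of CD163 against TLR2 (right), 1 point per horse, colored by group and shaped by slide. RAO-affected horse 8, at the upper right of the CD163 plot, has the highest TLR2 and CD163 signals, and RAO-affected horse 6 has a TLR4 signal of 15.49 with a CD14 signal of 14.39.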

How the data were processed

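Lymph node RNA of 14 horses was amplified, Cy3-labeled and hybridized to 1-colour Agilent arrays. Per the file headers, the authors deposited Feature Extraction 10.5.1.1 output, in which each spot's intensity (gProcessedSignal) was background-subtracted and not scaled between arrays (the submitters' processing notes name version 9.1). The authors also deposited a table that matched, probe by probe, a linear ratio of normalized signal to the median array (lowest correlation 0.999, column medians 0.973 to 1.02).

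Control spots and spots marked uneven or as outliers were dropped, spots of a probe averaged, and log2 intensities quantile normalized. Probes well above background on at least 4 arrays were tested in limma 3.58.1 (R 4.3.3), unpaired and two-sided, with Benjamini-Hochberg adjustment over all of them. Exact permutation tests covered all 3432 label splits, and correlations used 100000 permutations (Python 3.11.15, scipy 1.17.1). Numbers of horses are those of the labels. Probes were named by accession through the gene table of the horse assembly TB-T2T (1231 probes) and the study's supplementary accessions (20 probes). For a gene with more than 1 probe, the brightest on average stood for it.

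Members and lists were chosen with earlier results of these data known. Besides the 4 receptors, the text names pathway genes that met the 2-fold rule, differed 1.5-fold or partner the receptors, the other pathway genes tested, markers, and the 3 genes most like each receptor, of which 1 is not reported here. Alternatives were 75th percentile scaling, normexp (offset 50, on median spot signals), other filters, slide as a block, leaving out slide 1 or each horse, array weights, the ratio table, the mean over probes and the methods' t-test. The fit was tested on simulated data.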

Additional observations from a re-analysis of the deposited data

Results flagged for a closer look

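Of 34 groups of 7 horses examined with Dixon's ratio (the gap of an extreme horse to its neighbor over the range of its group, at the 95% critical value), 4 held a horse far from the others, and chance gives about 1 in 20. For TLR2, RAO-affected horse 8 lay at 15.61, while the other 6 lay at 14.07 to 14.63. The same horse lay at 14.37 for IL1B, against 10.16 to 11.51 in the rest of its group. For CD14, control horse 5 lay at 15.80, against 13.45 to 14.36 in the other control horses. For IL1A, control horse 9 lay at 6.01, against 3.23 to 4.27 (a probe well above background on 2 arrays of each group).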

How the results depend on the processing

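Each receptor's difference was recomputed under 25 alternatives and kept its sign in all of them, and none of the adjusted p-values passed. The differences ran from 0.25 to 0.50 for TLR2, 0.18 to 0.37 for TLR3, 0.48 to 0.73 for TLR4 and -0.59 to -0.14 for TLR9. The unadjusted p was under 0.05 in all 25 for TLR4 as represented by probe A_69_P001452 or the mean of both probes, in 2 for TLR2 and in none for TLR3 or TLR9. The other TLR4 probe missed that threshold with normexp, the slide block and the methods' t-test. With 1 horse left out, its unadjusted limma p was under 0.05 in only 6 of 14 fits. The smallest adjusted p for TLR4 was 0.217. TLR2 moved by over 1.5 times without RAO-affected horse 8 (0.25), TLR3 without RAO-affected horse 14 (0.18) or 10 (0.19), and TLR9 without slide 1 (-0.17), without control horse 3 (-0.24) or 5 (-0.25), with array weights (-0.14) and with slide as a block (-0.28).

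Of all probes, 570 met the 2-fold rule. With normexp the count was 268, with a filter at all 14 arrays 299, and without slide 1 it was 1112. Leaving out each horse gave 388 to 1120, the highest without RAO-affected horse 4. Pathway genes that met the rule numbered 3, and 2 to 5 with 1 horse left out (5 without RAO-affected horse 4, when CXCL10 and PTGS2 joined). The methods' t-test, run unpaired, called 490 probes, 0 after Benjamini-Hochberg, where 2034 had an unadjusted p under 0.05, and limma with slide as a block called 544, 0 after adjustment, where 4600 had an unadjusted p under 0.05. That number was 4724 without slide 1 and 4372 with array weights, against 2177. The causes of these shifts were not tested. No paired analysis was possible because the labels give no replicate number that the groups share, although the methods name a paired test. Saturation limits the probes chosen for LY96, HMGB1, FOS, CCL2, CCL5, CD68 and, in 1 horse each, CXCL10, CD14 and SELE, and a TLR4 probe.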

Other observations

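Among 448 named genes with probes well above background on all 14 arrays, genes highly correlated with each receptor over the 14 horses were as follows, as a description, since all points share arrays, slides and groups. TLR4 was followed most closely by RBMS3, an RNA-binding protein (r = 0.900, rho = 0.868), PLS3, an actin-bundling plastin (r = 0.881, rho = 0.912), and RPRD1A (r = 0.880, rho = 0.802). Without the 2 horses farthest from the TLR4 median these were still 0.826, 0.837 and 0.773. In RAO-affected horses RBMS3 was higher by 0.43, PLS3 by 0.93 and RPRD1A by 0.43 on the log2 scale.

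The genes most like TLR2 were CSF3 (r = 0.756, rho = 0.473), IL1B (r = 0.706, rho = 0.279) and IL18 (r = 0.704, rho = 0.169), and these fell to 0.347, 0.146 and 0.003 without the 2 farthest horses, of which RAO-affected horse 8 was one. For TLR3, CAV2 (r = 0.780) and RARB (r = 0.763) are given, with 0.499 and 0.159 without the 2 farthest. TLR9 was most like SLCO2B1, an organic anion transporter (r = 0.862), CD74, the invariant chain of MHC class II (r = 0.858), and HK2, a hexokinase (r = 0.854), and without slide 1 these were 0.347, 0.507 and 0.557 over 11 horses.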
